A study of Mus musculus with 12 samples.

Results

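The microglia marker genes described here are Trem2, Itgam, Csf1r, Cx3cr1, Aif1, C1qa, C1qb and Tmem119. They were taken by name as 8 of the 49489 gene rows of a total RNA table. The rule is a list of names with no threshold on values, and the list was drawn up with earlier results of these data known. The table came from a pulldown of the long noncoding RNA Gas5 in cultured hippocampal neurons, prepared from newborn mice (postnatal day 0) and kept for 16 days in vitro. It holds 3 libraries called antisense and 3 called sense. The labels do not say which word names the capture and which the control, and they give no strain, genotype or treatment for either group. Nor do they say that the replicates were separate cultures, so each p-value reflects library-to-library spread alone, and that spread may be technical.

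Microglia are the resident macrophages of the brain. They arise from yolk sac progenitors, depend on signalling through the receptor encoded by Csf1r, and clear debris and synapses. Neuronal cultures usually retain some glia, and marker genes such as these are read to see how much microglial RNA is present. Trem2 encodes a lipid-sensing receptor of microglia, Itgam the CD11b subunit of complement receptor 3, Cx3cr1 the receptor for the neuronal chemokine fractalkine, Aif1 the actin-binding protein IBA1, C1qa and C1qb subunits of the complement initiator C1q, and Tmem119 a membrane protein that separates resident microglia from other macrophages.

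All 8 genes had counts in every library, and all were low. The rounded counts ran from 1 to 61 per gene and library, in libraries of 5774904 to 10424024 counts. Values are given below as counts and as CPM, which are counts per 1000000 with library sizes scaled by TMM, an edgeR method that holds most genes level between libraries. Gas5 itself took 9.706% to 14.2% of the antisense counts and 32.66% to 57.13% of the sense counts, so the scale matters. The median log2 fold change over tested genes was -0.0139 with TMM and 0.70 with library totals alone. Of 20049 genes tested with edgeR's quasi-likelihood test, 18.2% were higher and 4.35% lower in antisense at a Benjamini-Hochberg adjusted p under 0.05. Neuron markers (9 of 9 with counts) summed to 862.4 to 1110.5 CPM in antisense and 1102.4 to 1373.9 CPM in sense. Astrocyte markers (8 of 8 with counts) summed to 1186 to 1482.1 CPM and 1370.2 to 1782.1 CPM, so the libraries also held astrocyte RNA. In such pulldown libraries fewer cells of a type, less RNA per cell and less of the RNA recovered in the pulldown cannot be told apart.

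None of the 8 genes overlaps an expressed gene, taken as a mean of at least 10 CPM. In the RefSeq annotation of GRCm38.p6, Trem2 lies on chromosome 17 from 48346401 to 48352276, Itgam on chromosome 7 from 128062640 to 128118491 and Cx3cr1 on chromosome 9 from 120048683 to 120068296. Aif1 lies on chromosome 17 from 35170986 to 35176083 and Tmem119 on chromosome 5 from 113793729 to 113800396. C1qb (136880126 to 136886200) and C1qa (136895916 to 136898844) are neighbours on chromosome 4, with C1qc between them. All 8 are annotated as protein-coding. Cx3cr1 shares its span with Gm33858, and Csf1r with Mir6983 and Gm52352, none of which reached a mean of 10 CPM. Overlap bears on the values because counting by strand is not stated, and reads of overlapping genes may then not be told apart. The means of Cx3cr1 and Csf1r lie under that cutoff too, and the part that reads of these overlapping genes play was not tested.

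The stretches upstream of Trem2 and Itgam are shown because these were the members that passed the test, in opposite directions. Capitals mark GAGGAA or its reverse complement TTCCTC, searched on both strands. It is the core of the sequence bound by PU.1, the transcription factor of the myeloid lineage. Each line gives the 250 bases before the RefSeq start of the gene, 5′ to 3′ on its own strand, for Trem2 chr17:48346151-48346400 (plus strand) and for Itgam chr7:128062390-128062639 (plus strand).
Trem2: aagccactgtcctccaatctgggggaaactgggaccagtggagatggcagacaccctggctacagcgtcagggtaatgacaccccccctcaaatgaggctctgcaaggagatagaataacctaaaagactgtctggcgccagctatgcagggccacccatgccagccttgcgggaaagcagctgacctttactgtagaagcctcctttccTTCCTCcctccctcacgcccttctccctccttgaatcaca
Itgam: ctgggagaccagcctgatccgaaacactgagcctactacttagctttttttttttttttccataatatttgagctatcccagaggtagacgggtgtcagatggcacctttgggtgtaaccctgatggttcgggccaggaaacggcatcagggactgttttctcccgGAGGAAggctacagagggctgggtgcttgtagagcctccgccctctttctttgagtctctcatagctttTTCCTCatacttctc
The match in Trem2 begins 40 bases before the start, and those in Itgam 84 and 15 bases before it. Windows were in the RefSeq table for 5 of 8 members and 4 of these held the motif (Trem2, Itgam, Aif1 and C1qb), as did 23.3% of the 32851 windows of that length searched. The Aif1 window ends at a start that lies inside the gene span given above, so its match is not upstream of that span. A match is a description of the letters and not a bound site.

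Trem2 was higher in the antisense libraries. It had 41, 60 and 49 counts in antisense replicates 1, 2 and 3 and 18, 26 and 16 in sense replicates 1, 2 and 3, or 5.39, 7.71 and 6.56 CPM against 2.85, 4.05 and 2.74 CPM. Every antisense library lay above every sense library. The group means were 6.55 ± 1.16 CPM and 3.21 ± 0.728 CPM (SD, n = 3 each), a log2 fold change of 1.02 (SE 0.269, 95% interval 0.45 to 1.6) or 2.03-fold (edgeR adjusted p = 0.0114). Among all genes tested, 23.4% had their antisense libraries all above their sense libraries. Without antisense replicate 2, the library with the most Trem2, the log2 fold change was 0.88 and the edgeR adjusted p 0.0539. In the authors' deposited table, which runs sense minus antisense, Trem2 stood at -1.05 (SE 0.393, adjusted p = 0.0482).

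Itgam went the other way and only just passed. It had 14, 24 and 25 counts in antisense and 23, 35 and 40 in sense, or 1.84, 3.08 and 3.35 CPM against 3.64, 5.45 and 6.85 CPM. The groups did not overlap, but antisense replicate 3 and sense replicate 1 lay next to each other. The means were 2.76 ± 0.805 CPM and 5.31 ± 1.61 CPM (SD, n = 3 each), a log2 fold change of -0.94 (SE 0.323, 95% interval -1.63 to -0.25; edgeR adjusted p = 0.0499). Antisense libraries lay entirely below sense libraries for 13.2% of the genes tested. The call was kept in 1 of the 6 fits that left out a library, that without sense replicate 1, and lost in the other 5, with edgeR adjusted p up to 0.207 (without sense replicate 3). DESeq2 gave an adjusted p = 0.0729, and scaling by library totals gave -0.25 (edgeR adjusted p = 0.54). The authors' deposited table gives Itgam 0.95 for sense minus antisense with an adjusted p = 0.145.

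The receptor genes Csf1r and Cx3cr1 did not pass. Csf1r, which binds the growth factors CSF1 and IL-34, had 51, 23 and 48 counts in antisense and 30, 19 and 15 in sense, or 6.71, 2.95 and 6.43 CPM against 4.74, 2.96 and 2.57 CPM. Antisense replicate 2 fell among the sense libraries and the other antisense libraries lay above them. The log2 fold change was 0.64 (SE 0.346, 95% interval -0.1 to 1.38; edgeR adjusted p = 0.223), and without antisense replicate 2 it was 0.92 (edgeR adjusted p = 0.0467). Cx3cr1 had 52, 61 and 42 counts in antisense and 25, 44 and 28 in sense, or 6.84, 7.83 and 5.63 CPM against 3.95, 6.86 and 4.8 CPM. Sense replicate 2 lay within the antisense range. Its log2 fold change was 0.38 (SE 0.255, 95% interval -0.17 to 0.92; edgeR adjusted p = 0.338). On library totals alone both passed as higher, at 1.41 (edgeR adjusted p = 0.000868) for Csf1r and 1.05 (edgeR adjusted p = 0.00682) for Cx3cr1. With that scaling 12804 of the 20049 genes tested were higher and the median log2 fold change was 0.70, so these passes say nothing particular about the 2 receptors.

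Aif1 and the complement genes C1qa and C1qb were too low for the filter on counts and had overlapping groups. Aif1 had 10, 7 and 16 counts in antisense and 7, 6 and 4 in sense, and only antisense replicates 1 and 3 exceeded the highest sense CPM. Its pooled, scaled ratio of antisense over sense was 1.58 (95% exact interval 0.854 to 3.02, counting error only). C1qa had 14, 17 and 7 counts in antisense and 13, 5 and 2 in sense, a ratio of 1.54 (0.876 to 2.8). Sense replicate 1 held most of the sense counts of C1qa, and without it the log2 ratio moved from 0.63 to 1.52. C1qb had 8, 7 and 2 counts in antisense and 7, 3 and 12 in sense, a ratio of 0.628 (0.313 to 1.24). The highest sense library was replicate 1 for C1qa and replicate 3 for C1qb, although both genes encode chains of the same protein. For C1qb the log2 ratio was -0.67 on the TMM scale and 0.09 on library totals, so its direction depended on the scaling.

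Tmem119, the marker of resident microglia, was close to undetected. It had 3, 1 and 1 counts in antisense and 1, 1 and 2 in sense, 5 against 4 in all, and a ratio of 1.02 (95% exact interval 0.219 to 5.12). With no filter on low counts these 4 genes could be tested as well, and none passed: edgeR adjusted p = 0.486 for Aif1, 0.509 for C1qa, 0.543 for C1qb and 0.996 for Tmem119. At these counts a difference of the size seen for Trem2 lay inside the interval of each of Aif1, C1qa and Tmem119.

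**Figure D1:**
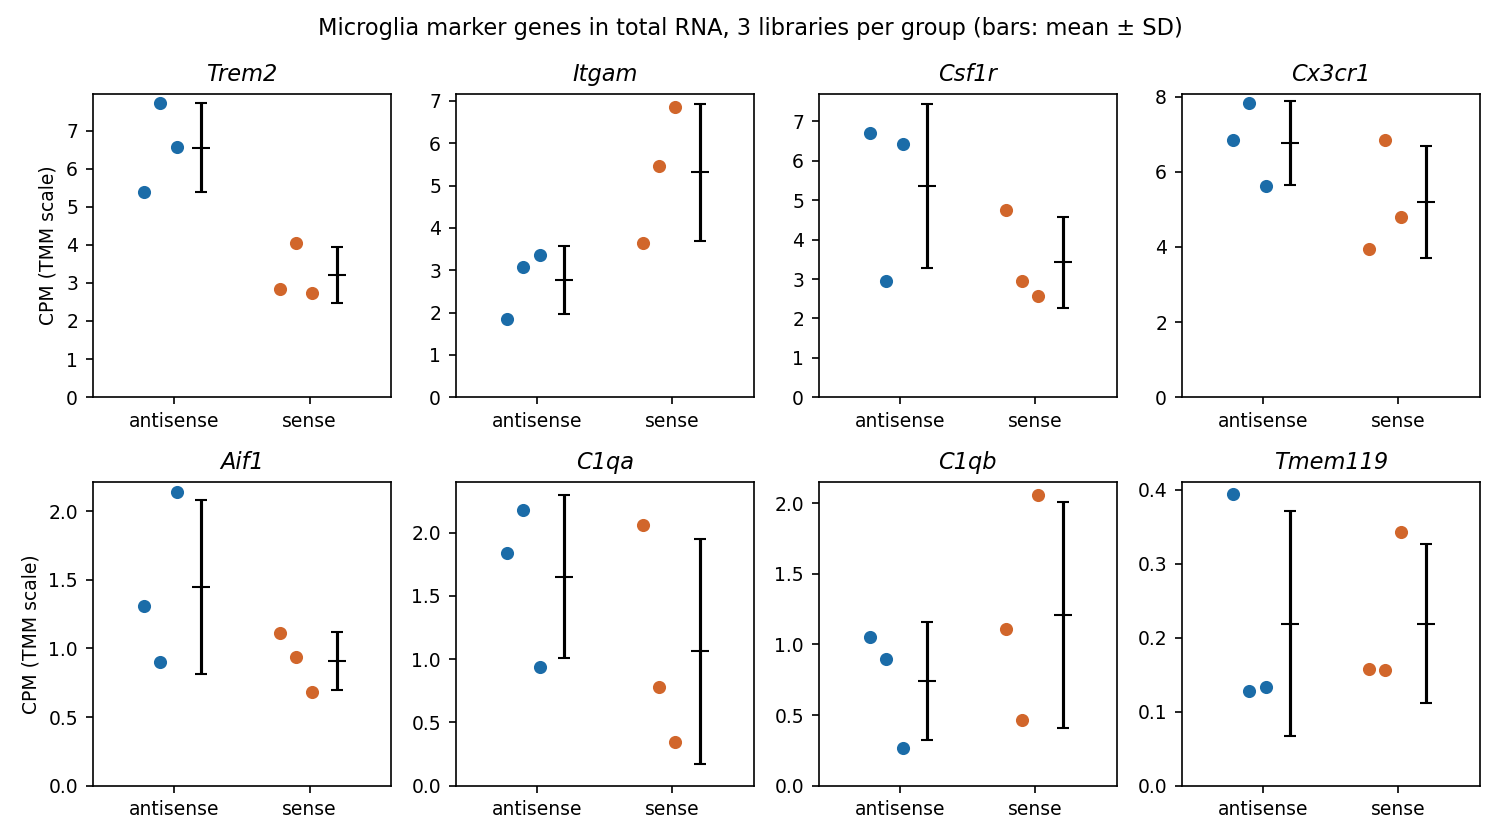
CPM on the TMM scale (vertical axes, from 0, each gene on its own range) of the 8 microglia marker genes in 3 antisense (blue) and 3 sense (orange) total RNA libraries, with the mean and SD as black bars. Trem2 (5.39 to 7.71 against 2.74 to 4.05 CPM) and Itgam (1.84 to 3.35 against 3.64 to 6.85 CPM) have groups that do not overlap, and the other 6 genes overlap.

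The 8 genes did not share a direction. Each of the 4 tested reached the filter's minimum in all libraries of both groups. Of these 4, 1 was higher and 1 lower, beside 18.2% and 4.35% of all genes tested. Among tested genes that, like these 4, overlap no expressed gene, the shares were 9.74% and 4.87%. With 4 genes these counts say nothing about the list as a whole. The median log2 fold change of the 4 was 0.51, against -0.0139 over all genes tested. Differences of the group means (antisense minus sense) were 3.34 CPM for Trem2, 1.94 for Csf1r, 1.56 for Cx3cr1, 0.595 for C1qa, 0.544 for Aif1, -0.47 for C1qb and -2.56 for Itgam. Summed over the 8 genes, the antisense libraries held 25.4, 25.7 and 25.5 CPM and the sense libraries 19.6, 21.7 and 20.4 CPM, means of 25.5 ± 0.16 and 20.5 ± 1.04 CPM (SD, n = 3 each). These sums rest on 193, 200 and 190 antisense counts and 124, 139 and 119 sense counts. The SD of 0.16 CPM is below the counting error of such sums and understates their uncertainty. As a plain share of the library, the 8 genes took 0.00332%, 0.00318% and 0.00329% of the antisense counts and 0.00119%, 0.00215% and 0.00157% of the sense counts. The 95% exact interval of antisense replicate 1, 0.00287% to 0.00382%, is wider than the spread of the antisense shares. Sense replicate 1, which had the largest Gas5 share, had the smallest share of microglia marker counts (95% exact interval 0.000989% to 0.00142%).

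**Figure D2:**
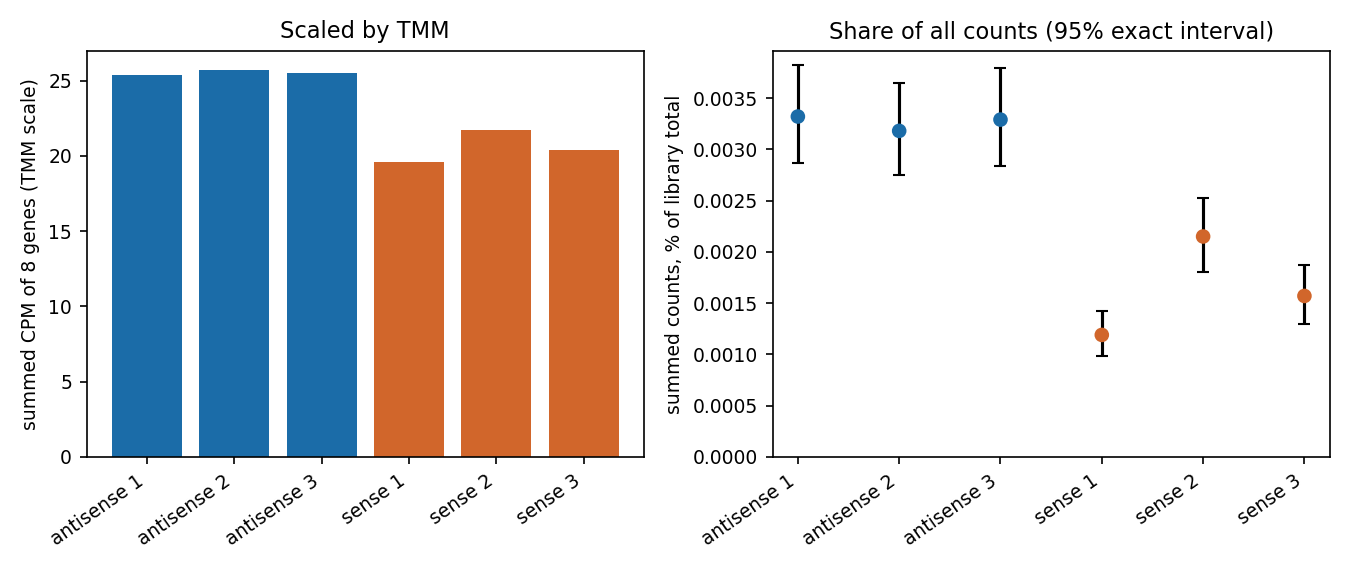
Left, the summed CPM of the 8 genes on the TMM scale in each library, from 19.6 to 21.7 in sense (orange) and 25.4 to 25.7 in antisense (blue). Counting error is not drawn there. Right, the same counts as a percent of all counts of the library with 95% exact intervals, where sense replicate 1 is lowest at 0.00119%.

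Genes that work with the markers included 1 higher and 1 lower gene. Of 20 partner genes (ligands, adaptors, receptor and complement partners, transcription factors), 14 were tested: 1 was higher, 1 lower and 12 missed the threshold (median log2 fold change -0.2). These counts stand beside 18.2% higher and 4.35% lower over all genes tested, and say nothing particular about the partners. The higher gene was Il34, a ligand of the Csf1r receptor made by neurons. It had 67, 53 and 55 counts in antisense and 6, 11 and 7 in sense, with no overlap, and means of 7.66 ± 1.03 CPM and 1.29 ± 0.39 CPM (SD, n = 3 each; log2 fold change 2.55, SE 0.306, edgeR adjusted p = 1.46e-05). Il34 passed whichever library was left out, but it entered the test through the antisense group, with 1 sense library at the filter's minimum. Its span overlaps Gm15894, Gm39250 and Gm15895, none of which reached a mean of 10 CPM. The part that their reads play was not tested. The other ligand, Csf1, had an antisense mean of 110.7 ± 4.24 CPM and a sense mean of 126.4 ± 0.942 CPM (log2 fold change -0.19, edgeR adjusted p = 0.131). The ligand of Cx3cr1, Cx3cl1, stood at 19.3 ± 2.42 and 24.8 ± 3.22 CPM (log2 fold change -0.36, edgeR adjusted p = 0.0832).

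The lower partner was C3, the complement component whose cleavage product is bound by the receptor that Itgam forms. Its antisense mean was 125.7 ± 16.5 CPM and its sense mean 173.4 ± 36.6 CPM (SD, n = 3 each; log2 fold change -0.46, SE 0.141, edgeR adjusted p = 0.0264). The groups overlapped. The call was lost without antisense replicate 3, sense replicate 1 or sense replicate 3 (edgeR adjusted p up to 0.134), and library totals gave 0.29. Apoe, a lipoprotein gene of astrocytes and microglia, stood at 163.3 ± 30.9 and 200.4 ± 44.3 CPM (log2 fold change -0.3, edgeR adjusted p = 0.208), and the transcription factor gene Sall1 at 16.3 ± 1.06 and 17.9 ± 2.45 CPM (log2 fold change -0.14, edgeR adjusted p = 0.564).

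Partners that the marker proteins need also had few counts. Tyrobp, which encodes the signalling adaptor of Trem2, had 5 counts in all antisense libraries together and 9 in sense (ratio 0.452, 95% exact interval 0.119 to 1.5). Itgb2, the chain that pairs with CD11b, had 20 and 23 counts (0.707, 0.368 to 1.35), and C1qc, the third chain of C1q, 19 and 9 (1.72, 0.74 to 4.31). By the same counting method the ratio of Trem2 was 2.03 (1.5 to 2.79), and its difference from that of Tyrobp was not tested. Spi1, which encodes PU.1, had 1, 5 and 2 counts in antisense and 0 in every sense library. With sense set at a floor of 3 counts over the group the ratio was 2.17. The lower 95% exact limit without that floor was 1.39. None of these 4 genes passed the filter on counts.

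Among other microglia genes the largest differences were in 3 that lie inside expressed genes. Of 29 listed, 16 were tested, and edgeR called 5 higher and 0 lower, leaving 11 (median log2 fold change 0.11), beside 18.2% higher and 4.35% lower over all genes tested. All 5 reached the filter's minimum, a CPM scaled to library size, in 3 antisense libraries and 0 sense libraries, so they entered the test through the group where they were high and their number supports nothing about the list. DESeq2 also called 0 lower, and 1 gene, Lyz2, was lower at an unadjusted p under 0.05 (log2 fold change -0.95, edgeR adjusted p = 0.0544). The 3 with the largest differences were the purinergic receptor genes P2ry12 and P2ry13 and the lysophosphatidylserine receptor gene Gpr34. P2ry12 had 33, 28 and 30 counts in antisense and 0, 0 and 2 in sense, a ratio of 37 (95% exact interval 9.95 to 310.1). P2ry13 had 46, 47 and 40 against 2, 1 and 0, a ratio of 36 (12.1 to 177), and Gpr34 had 48, 72 and 46 against 0, 0 and 1, a ratio of 134.9 (23.9 to 5361.9). Each passed whichever library was left out (edgeR adjusted p = 2.18e-05, 3.16e-06 and 1.11e-06 over all libraries).

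Those 3 genes lie within the spans of expressed genes. P2ry12 (chromosome 3, 59216271 to 59262985) and P2ry13 (59207892 to 59210882) lie on the minus strand inside Med12l (59005419 to 59318446), which is on the plus strand in the RefSeq promoter table. Med12l had means of 77 ± 7.44 and 83.5 ± 6.04 CPM (antisense, then sense; SD, n = 3 each; log2 fold change -0.12, edgeR adjusted p = 0.457). Gpr34 (chromosome X, 13622650 to 13640859) lies inside Cask (13517080 to 13846783), a synaptic scaffold gene at 85.4 ± 3.92 and 97.2 ± 6.02 CPM (log2 fold change -0.19, edgeR adjusted p = 0.169). The part that reads of the enclosing genes play was not tested. None of the 8 marker genes has such an enclosing gene. Among all tested genes with a position, 35.4% of those overlapping an expressed gene were higher and 3.01% lower. Of those overlapping none, 9.74% were higher and 4.87% lower.

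The others that passed were Cd86, a costimulatory ligand gene, and Siglech, a sialic acid receptor gene. Cd86 had 26, 14 and 11 counts against 4, 4 and 3 (log2 fold change 1.88, SE 0.473, edgeR adjusted p = 0.00825), and lost its call without antisense replicate 1 or sense replicate 3. Siglech had 21, 26 and 26 counts against 11, 9 and 10 (log2 fold change 0.98, SE 0.327, edgeR adjusted p = 0.0445), and lost it whichever library was left out. The better-counted genes of the list did not pass: Olfml3 stood at 20.8 ± 5.27 and 19.8 ± 1.18 CPM, Tlr2 at 16.5 ± 2.81 and 17.8 ± 2.5 CPM, and Selplg at 13.1 ± 1.05 and 15.7 ± 3.31 CPM in antisense and sense. Some genes of the lists, such as the partner Apoe and, here, Olfml3, are also made by cells other than microglia.

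**Figure D3:**
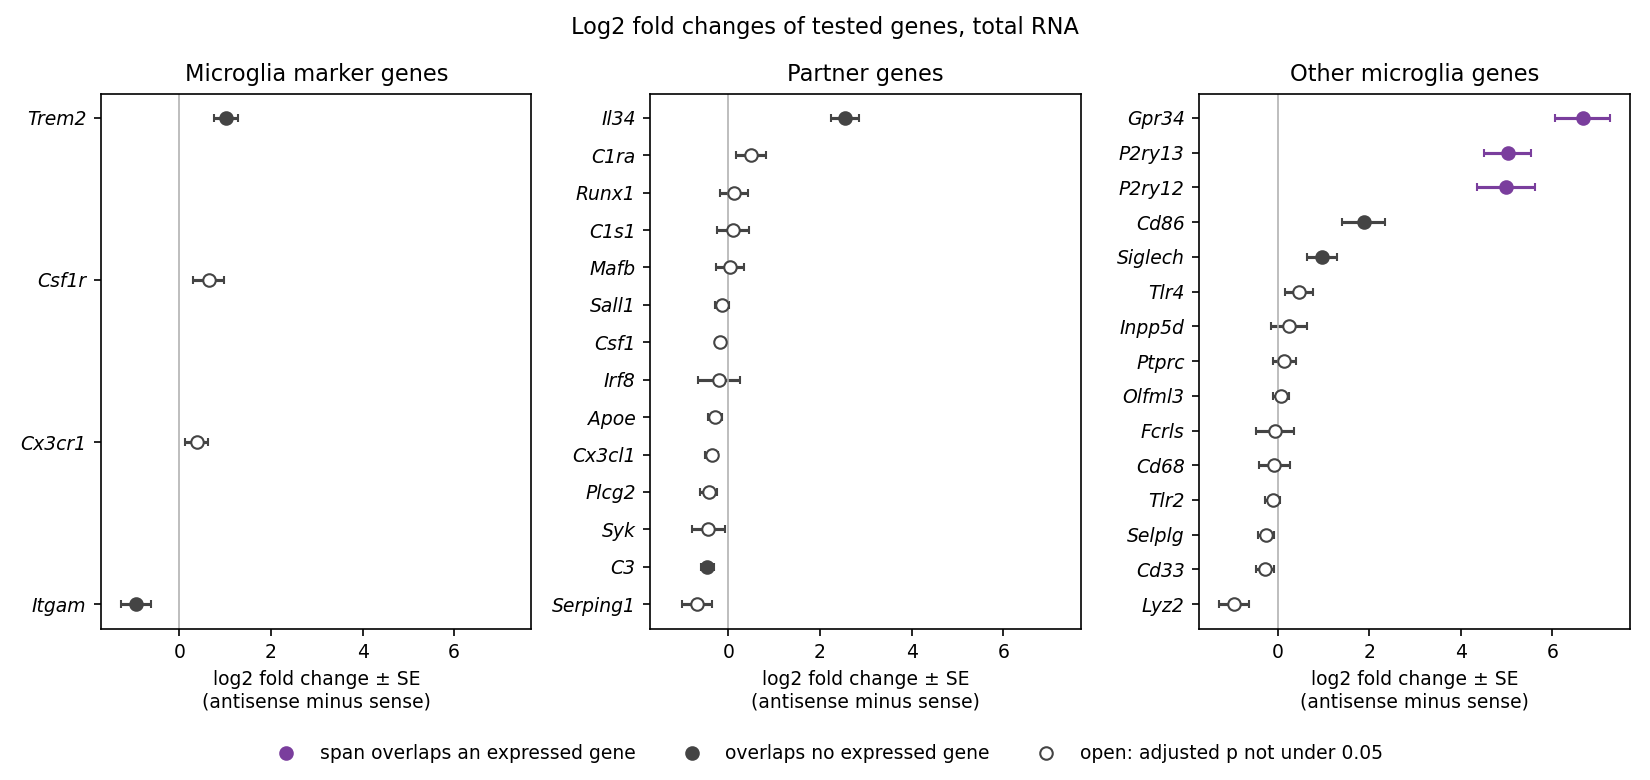
Log2 fold change (antisense minus sense, horizontal axis) with its SE for the tested genes of the marker list (4), the partner list (14) and the list of other microglia genes (15 of 16 drawn). Filled points passed an edgeR adjusted p under 0.05 and purple points overlap an expressed gene: P2ry12, P2ry13 and Gpr34 lie at 4.99 to 6.66, and Trem2 lies at 1.02.

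Markers of other blood and immune cells were also low. Border macrophage and monocyte genes (9 of 9 with counts) summed to 26.7 to 39 CPM in antisense and 24.5 to 29.3 CPM in sense, and of 5 tested 1, the lectin receptor gene Clec12a, was higher (12.1 ± 3.04 against 6.88 ± 0.528 CPM, SD, n = 3 each; edgeR adjusted p = 0.0119), beside 18.2% of all genes tested. Lymphocyte genes (6 of 6 with counts) summed to 9.78 to 13.7 and 9.35 to 11.6 CPM. Among 5 neutrophil genes S100a8, S100a9 and Ly6g were at 0 in every library. Camp had 4, 7 and 6 counts in antisense and 0 in each sense library, and Ngp had 5, 0 and 4 against 0. Taking 3 sense counts in all as the floor, the ratios were 4.61 for Camp and 2.44 for Ngp. The lower 95% exact limits without that floor were 3.35 for Camp and 1.6 for Ngp. Erythroid genes summed to 15.1 to 17.1 CPM in antisense and 0 to 0.791 CPM in sense, with 356 antisense counts of Alas2 and none in sense. The share that macrophages other than microglia had in the counts of Trem2, Itgam, Csf1r, Cx3cr1 and Aif1, which such cells also express, was not tested.

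The small RNA libraries gave 1 readable miRNA of the leukocyte list. Of 14 rows for miR-142a, miR-223, miR-155, miR-146a, miR-146b, miR-21a and miR-150, 13 were listed at 0 in all 6 small RNA libraries. Since 7 of 20 rows of the let-7 family, which most cells make, were also listed at 0, such zeros are not read as absence. The exception was miR-21a-5p, a miRNA of activated glia and many other cells, shown with its seed (bases 2 to 8) in capitals as the only one of the list with counts. RefSeq places it on the minus strand of chromosome 11 from 86584120 to 86584141 (GRCm38.p6).
miR-21a-5p: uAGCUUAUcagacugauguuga
It had 416, 524 and 399 counts in antisense and 454, 577 and 578 in sense, or 2118.5 ± 176 and 2146.3 ± 176.9 CPM of miRNA counts (SD, n = 3 each). The groups overlapped, with a log2 fold change of -0.02 (SE 0.172, 95% interval -0.39 to 0.36; edgeR adjusted p = 0.968). Of 158 miRNAs tested, 0 passed with edgeR and 0 with DESeq2, and 18 had an unadjusted p under 0.05 in edgeR.

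Over the 6 total RNA libraries, the genes whose log2 CPM ran most like the log2 of the summed marker level were Gm48417 (Pearson r = 0.9998), Traf5 (0.9994), Vmn2r97 (0.9988), Slmapos2 (0.9984) and Nipal2 (0.9984), of 11001 genes with a mean of at least 10 CPM. With 6 points in 2 groups, r mostly follows the gap between the groups, and the points share their TMM factors. The genes were also picked as those with the highest r, so values this near 1 are no test of a link. Mean levels went from 51.6 CPM in sense to 228.7 in antisense for Gm48417 and from 81.4 to 115.6 for Vmn2r97, so a high r went with folds of different size.

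The calls on the 4 tested markers depended on the scaling and on single libraries to different degrees. Trem2 passed in 11 of 12 alternative fits. Itgam passed in 4 of 12, Csf1r in 2 and Cx3cr1 in 1. Each of the 4 kept its direction in all 12 fits.

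**Figure D4:**
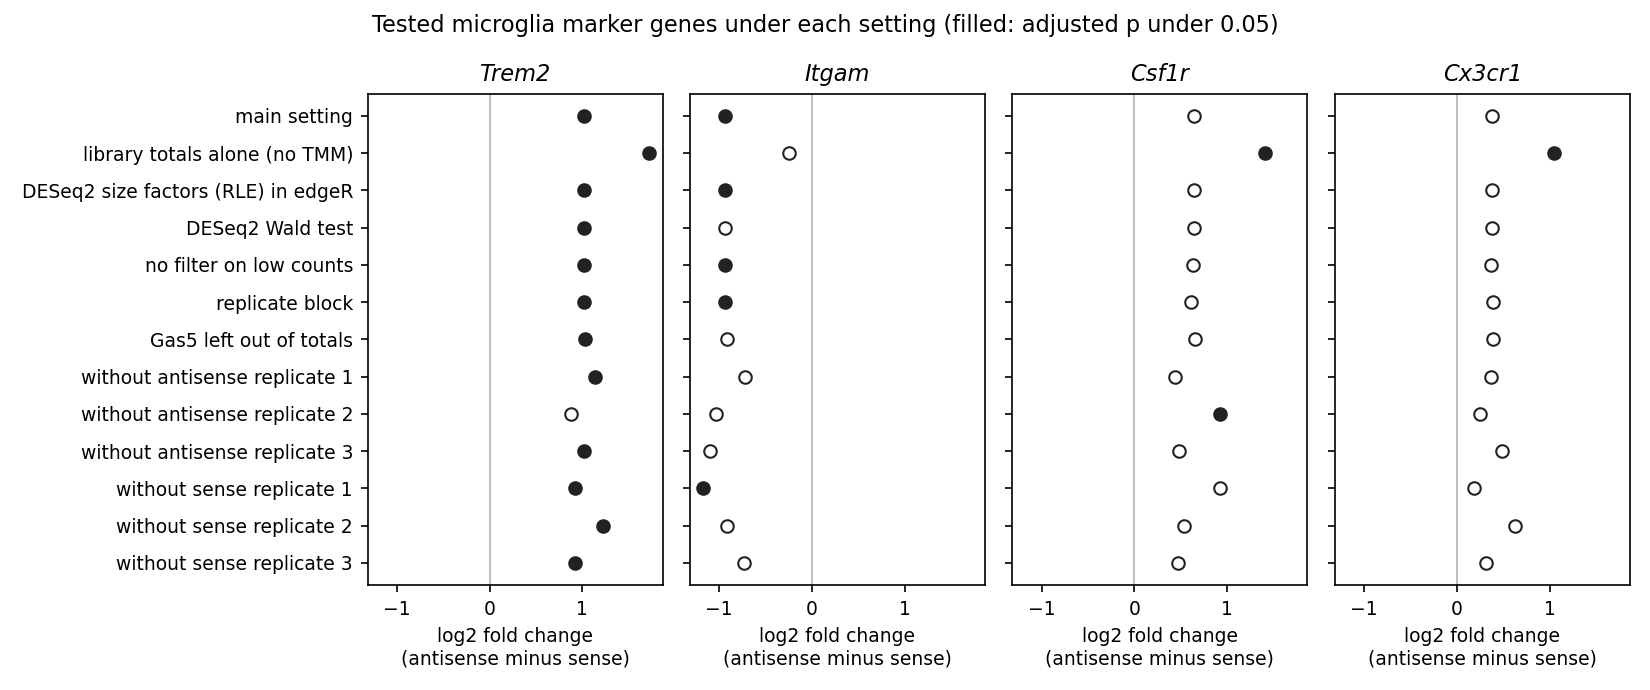
Log2 fold change (antisense minus sense, horizontal axes) of the 4 tested marker genes under the main setting and 12 alternatives (rows), with filled points where the adjusted p was under 0.05. Trem2 stays between 0.88 and 1.72 and is open only without antisense replicate 2, while Itgam is open in 8 of 12 alternatives.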

How the data were processed

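Total RNA and small RNA libraries of a Gas5 pulldown, 3 antisense and 3 sense each, were analysed. The submitters' processing notes name Salmon, DESeq and the build GRCm38, without versions. Strand handling is not given in the sources used here. The count tables deposited by the authors hold estimated counts, per gene symbol for total RNA and per miRNA or transcript for small RNA. The authors' deposited comparison table gives log2 fold changes, p-values and a mean normalised signal, which was not used here.

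Estimated counts were rounded. Rows were kept by filterByExpr (minimum count 10), scaled by TMM and tested with edgeR 4.0.16 (quasi-likelihood, two-sided, antisense minus sense, Benjamini-Hochberg at 0.05, R 4.3.3). For small RNA the test ran on the 1964 miRNA rows, with 193501 to 258237 counts per library. SE is the log2 fold change over the square root of F. Members below the filter got pooled ratios with exact 95% intervals, which cover counting error only. Groups at 0 were set at 3 counts over the group. DESeq2 1.42.0 was an alternative.

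The members and lists were chosen with earlier results of these data known. Named from the partner and other lists were the passing genes and the 4 of highest mean CPM among the rest, of which 1 is not reported here by name and stays in the counts. From the miRNA list, rows with a mean of at least 1 count were named, and the 5 genes most like the summed level. Tyrobp, Itgb2, C1qc, Spi1, Lyz2, Clec12a, Camp, Ngp and Alas2 were chosen after their values were seen. Positions are from RefSeq (37784 of 49489 symbols matched). A gene counted as expressed at a mean of 10 CPM. No libraries had identical columns, and each of the 15 pairs differed beyond sampling noise (chi-square per degree of freedom at least 5.02).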

Additional observations from a re-analysis of the deposited data

How the results depend on the processing

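On library totals alone, 12804 of the 20049 genes tested were higher and 62 lower. There 3 marker genes were higher and 0 lower, 6 partners higher and 0 lower and 9 other microglia genes higher. The median log2 fold changes were then 1.23 for the markers, 0.52 for partners and 0.84 for other microglia genes, Itgam stood at -0.25 (edgeR adjusted p = 0.54), Csf1r at 1.41 and Cx3cr1 at 1.05, and the summed marker level was 32.9 CPM in antisense and 16.4 in sense. With Gas5 left out of the totals, Itgam stood at -0.92 (edgeR adjusted p = 0.0558), leaving 0 markers lower. The sums were then 37.2 CPM in antisense and 29.7 CPM in sense, both counted against totals without Gas5. DESeq2 gave Itgam -0.94 (adjusted p = 0.0729), again 0 markers lower. At a minimum count of 50 no marker was tested, so 0 were higher or lower. There 1795 genes were higher and 402 lower, 0 partners were lower, and 1 other microglia gene was higher with a median of -0.1. With no filter 1 other microglia gene was lower.

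Leaving out 1 library at a time gave 3392 to 3987 higher and 492 to 1100 lower genes. Among markers it gave 1 higher in each fit and 0 to 1 lower, with a median of 0.39 to 0.88. The higher marker was Trem2 except without antisense replicate 2. There it was Csf1r (0.92, edgeR adjusted p = 0.0467), and Trem2 did not pass (0.88, edgeR adjusted p = 0.0539). Partners were 1 higher and 0 to 2 lower (median -0.23 to -0.18), and other microglia genes 3 to 5 higher and 0 to 1 lower (median 0.03 to 0.25). Log2 fold changes ranged from 0.88 to 1.22 for Trem2, -1.17 to -0.72 for Itgam, 0.44 to 0.92 for Csf1r and 0.19 to 0.63 for Cx3cr1. The log2 pooled ratios ranged from 0.27 to 0.91 for Aif1, 0.23 to 1.52 for C1qa, -1.07 to -0.08 for C1qb and -0.72 to 0.47 for Tmem119. The summed level was 24.1 to 28 CPM in antisense and 19.4 to 23.4 in sense. Both highest values came from the fit without sense replicate 1 and both lowest from that without antisense replicate 1. The antisense counts were unchanged in the fit without sense replicate 1, so these ranges include shifts of the TMM scale. The value of miR-21a-5p, near 0, changed sign, at -0.07 to 0.05, and was 0.01 on totals over all small RNA rows.

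Same-numbered libraries did not deviate together (r = 0.0617, -0.0753 and -0.00896 for numbers 1, 2 and 3), so the numbers were not taken as pairs, and not every library correlated best with its own number. The replicate block gave 3428 higher and 695 lower genes, 1 marker higher (Trem2, 1.02, edgeR adjusted p = 0.0146) and 1 lower (Itgam, -0.94, adjusted p = 0.0389), and 4 other microglia genes higher. Where the value moved, the cause was not tested. Counts of 1 to 61 limit what can be seen for each marker.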
